A study of Mus musculus with 199 samples.

Results

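Glul, Cyp2e1, Oat, Slc1a2, Lgr5, Axin2, Tbx3, Rnf43, Cyp1a2 and Rhbg are genes that hepatocytes around the central vein express under Wnt signalling. The 10 were listed by name, and each was sought in the table of read counts through its Ensembl identifier. Of the 10, 9 had a row among the 37713 genes of the table, and Rhbg was not analysed here.

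In the liver lobule, endothelial cells of the central vein release Wnt ligands and R-spondin, which stabilise β-catenin in the nearest hepatocytes. β-catenin then acts with TCF/LEF factors on a set of target genes, so glutamine synthesis and much of drug metabolism are confined to the perivenous zone. In liver tumours, glutamine synthetase is widely used as a marker of β-catenin activity, and activating mutations of β-catenin are a known feature of some hepatocellular carcinomas.

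The series holds 199 RNA sequencing libraries from male wild-type C57BL/6 mice of an in-house colony. DEN ALIOS names a model of liver cancer on fatty liver disease, in which the carcinogen diethylnitrosamine is combined with a diet high in fat and sugar. Whole-tissue libraries comprised 25 large tumours and 25 small tumours of DEN ALIOS mice and 15 samples of liver tissue. The titles of the liver tissue samples also carry DEN ALIOS, whereas their treatment label is Normal and the protocol speaks of healthy tissue, so whether those mice received the model treatment is not settled by the labels. Age and animal were not given for tissue samples, tumours of 1 mouse may be among them, and p-values measure the spread between samples. Further libraries came from sorted Ly6G+ neutrophils and CD3+ T cells of liver and blood, from mice labelled DEN ALIOS alone or with aPD1, CXCR2i or both, and for T cells also from mice labelled PBS or CXCR2i alone.

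Tissue libraries held 12055434 to 21850190 gene counts each, with a median of 15178619. Library names in the labels fall into 3 sets by prefix, each of which holds all 3 tissue groups, and the set was a term of the fits unless stated otherwise. Summed over 7 hepatocyte markers, large tumours held 129742 to 257066 CPM (gene counts scaled to a common library size), small tumours 119289 to 275091 CPM and liver tissue 55187 to 131299 CPM, so hepatocyte transcripts were abundant in every library. T cell markers summed to at most 27.7 CPM in large tumours, 16.8 CPM in small tumours and 13.3 CPM in liver tissue. Kupffer cell markers were lower in the tumours, at 57.7 to 263.6 CPM in large tumours and 83.7 to 340.5 CPM in small tumours, against 287 to 670.8 CPM in liver tissue, and their part in the results below was not tested. In bulk tissue, fewer cells of a type and less RNA per cell cannot be told apart.

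The members move together between tumours, as described below, so their promoters were searched for the core letters bound by TCF/LEF factors. The form CTTTGAA, its variant CTTTGAT, the form CTTTGTA and its variant CTTTGTT were sought on both strands, from 250 bases before to 50 bases after each RefSeq transcript start (GRCm38.p6). The 4 forms exclude each other at a given base of a strand. Of 32851 promoters searched, 16.9% held a match, and 3 of the 8 promoters found for 7 members did. Lgr5 and Tbx3 had no entry. Shown are the 3 with a match, in capitals, and that of Glul, which had none, each 5′ to 3′ along its gene. They lie at chr7:140763569-140763868 on the plus strand for Cyp2e1, chr2:102706188-102706487 on the plus strand for Slc1a2, chr9:57683606-57683905 on the minus strand for Cyp1a2 and chr1:153899679-153899978 on the plus strand for Glul. The Cyp2e1, Slc1a2 and Cyp1a2 windows each belong to a start inside the gene's annotated span, and that of Slc1a2 lies farthest inside.
Cyp2e1: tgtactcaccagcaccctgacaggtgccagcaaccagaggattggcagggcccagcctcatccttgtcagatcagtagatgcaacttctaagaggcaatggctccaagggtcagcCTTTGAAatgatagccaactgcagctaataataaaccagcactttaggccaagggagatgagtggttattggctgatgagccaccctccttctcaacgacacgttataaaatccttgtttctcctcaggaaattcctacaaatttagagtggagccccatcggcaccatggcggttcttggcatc
Slc1a2: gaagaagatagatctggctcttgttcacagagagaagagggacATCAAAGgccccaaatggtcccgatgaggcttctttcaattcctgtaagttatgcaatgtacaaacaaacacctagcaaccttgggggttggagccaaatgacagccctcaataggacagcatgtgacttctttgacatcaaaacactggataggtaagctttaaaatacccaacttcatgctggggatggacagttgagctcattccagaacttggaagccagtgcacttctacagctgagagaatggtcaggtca
Cyp1a2: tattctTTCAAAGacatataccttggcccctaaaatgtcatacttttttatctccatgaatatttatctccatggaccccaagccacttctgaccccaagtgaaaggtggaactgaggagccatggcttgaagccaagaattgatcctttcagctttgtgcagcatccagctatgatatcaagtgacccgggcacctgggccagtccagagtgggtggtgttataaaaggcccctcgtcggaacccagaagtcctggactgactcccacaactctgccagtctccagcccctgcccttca
Glul: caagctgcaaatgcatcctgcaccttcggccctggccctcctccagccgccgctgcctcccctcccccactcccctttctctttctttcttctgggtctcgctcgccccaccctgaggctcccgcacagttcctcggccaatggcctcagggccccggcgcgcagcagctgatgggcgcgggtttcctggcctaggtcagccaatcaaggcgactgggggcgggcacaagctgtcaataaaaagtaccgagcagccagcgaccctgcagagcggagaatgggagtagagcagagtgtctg
The match began 135 bases before the start in Cyp2e1, 207 bases before it in Slc1a2 and 244 bases before it in Cyp1a2, and the last 2 read on the reverse strand. A match is a run of letters, not evidence of binding.

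Large tumours carried less of 8 of the 9 genes than liver tissue, with fitted log2 fold changes from -1.44 (Lgr5) to -4.31 (Cyp2e1), and Rnf43 did not pass the test. Small tumours carried less of all 9, from -0.50 (Rnf43) to -3.06 (Cyp2e1). Both counts come from edgeR's quasi-likelihood test with Benjamini-Hochberg adjustment over all genes and a threshold of 0.05. Over the 14538 genes tested, 32.1% were lower and 38.5% higher in large tumours than in liver tissue, and 31% were lower and 34.7% higher in small tumours. The median log2 fold change of the 9 was -2.49 in large tumours and -2.33 in small tumours, beside 0.05 and 0.03 over all genes. Both comparisons share the liver tissue libraries.

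**Figure D1:**
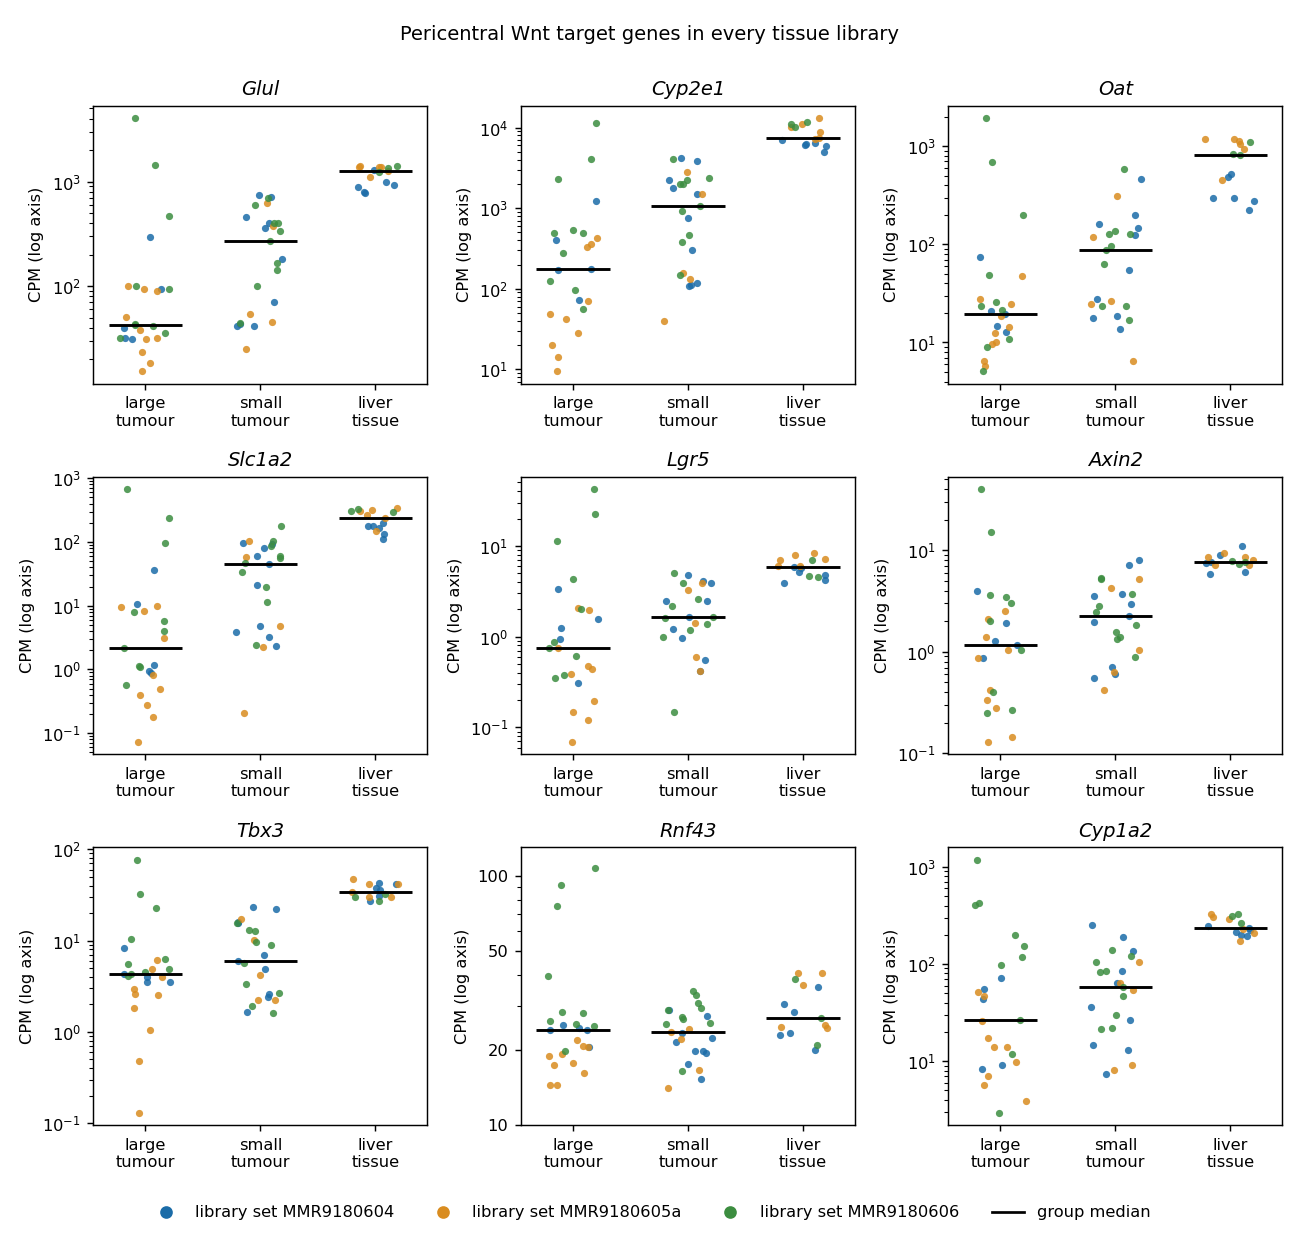
Normalised expression of the 9 genes in each of the 65 tissue libraries, in CPM on a log axis, with large tumours on the left, small tumours in the middle and liver tissue on the right. Points are libraries coloured by library set and lines are group medians. Apart from Rnf43, tumours spread more widely than liver tissue, and the highest large tumour lies above every liver tissue library in each panel but that of Cyp2e1.

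**Figure D2:**
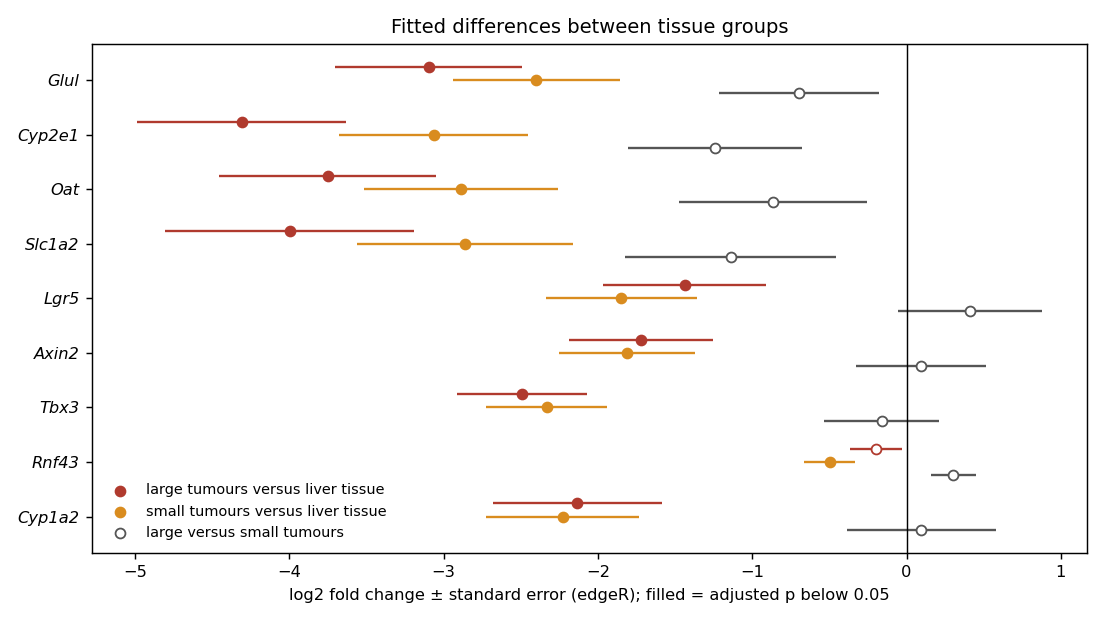
Fitted log2 fold change with its standard error for each gene in the 3 tissue comparisons, filled where the adjusted p was below 0.05. Both comparisons with liver tissue lie left of 0 for every gene, and no point of the comparison of large with small tumours is filled.

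Lgr5 encodes the receptor that binds R-spondins and so prolongs Wnt signalling. It was at 0.0696, 0.758 and 42.1 CPM (lowest, median and highest) in large tumours, 0.147, 1.63 and 5.08 CPM in small tumours and 3.95, 5.88 and 8.27 CPM in liver tissue. Of the large tumours, 21 lay below every liver tissue library, 1 within their range and 3 above it, and of the small tumours 22 lay below and 3 within. The lowest tumour value rests on 1 read. The log2 fold change from liver tissue was -1.44 ± 0.53 (SE) in large tumours (adjusted p = 0.0133) and -1.85 ± 0.49 in small tumours (adjusted p = 0.000797).

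Rnf43, a ubiquitin ligase that removes Wnt receptors from the cell surface and is itself switched on by the pathway, changed least. It was at 14.5, 24.1 and 107.8 CPM in large tumours, 14.1, 23.7 and 34.6 CPM in small tumours and 20.0, 27.0 and 40.9 CPM in liver tissue. The groups overlapped widely: 8 large and 8 small tumours lay below the lowest liver tissue library, and 3 large tumours lay above the highest. The log2 fold change was -0.20 ± 0.17 in large tumours (adjusted p = 0.299) and -0.50 ± 0.17 in small tumours (adjusted p = 0.00739). Without large tumours 19 and 20, left out for their high levels of these genes, the value for large tumours was -0.41 and passed the threshold, which is no test. Without a term for the library set the small tumours were at -0.30 (adjusted p = 0.168). The gene 1110028F11Rik overlaps the span of Rnf43 on the same strand without sharing exonic bases.

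Axin2, a scaffold of the complex that degrades β-catenin and a feedback target in most tissues, was at 0.130, 1.18 and 39.8 CPM in large tumours, 0.418, 2.25 and 7.94 CPM in small tumours and 5.87, 7.72 and 11.05 CPM in liver tissue. Below the whole liver tissue range lay 23 large and 23 small tumours, and 2 large tumours lay above it. Its log2 fold change was -1.72 ± 0.47 in large tumours (adjusted p = 0.000884) and -1.81 ± 0.44 in small tumours (adjusted p = 0.000268).

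Tbx3 encodes a T-box transcription factor that is a β-catenin target in liver. Large tumours held 0.130, 4.26 and 76.4 CPM of it, small tumours 1.62, 6.00 and 23.3 CPM and liver tissue 27.1, 33.7 and 47.9 CPM. All 25 small tumours lay below all liver tissue libraries, as did 23 large tumours, with 1 within the range and 1 above. Its log2 fold change was -2.49 ± 0.42 in large tumours (adjusted p = 4.711e-07) and -2.33 ± 0.39 in small tumours (adjusted p = 5.331e-07).

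Glul encodes glutamine synthetase, which takes up the ammonia that escapes the urea cycle. It was at 15.5, 42.7 and 4016 CPM in large tumours, 25.3, 269.7 and 737.8 CPM in small tumours and 775.7, 1257 and 1422 CPM in liver tissue. No small tumour reached the liver tissue range, 23 large tumours lay below it, and the other 2 lay above it, with none inside. The log2 fold change was -3.10 ± 0.61 in large tumours (adjusted p = 8.228e-06) and -2.40 ± 0.54 in small tumours (adjusted p = 9.660e-05). The ratio of medians in large tumours was lower still, at -4.88 on the log2 scale, because a fitted mean weighs the highest tumours more than a median does.

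Slc1a2, the glutamate transporter GLT-1, had the widest range. It was at 0.0733, 2.16 and 674.2 CPM in large tumours, 0.209, 45.0 and 179.8 CPM in small tumours and 109.8, 235.9 and 341.6 CPM in liver tissue, and the lowest large tumour held 1 read. Below the liver tissue range lay 23 large and 24 small tumours, and 1 large tumour lay above it. The ratio of medians was -6.77 on the log2 scale in large tumours and -2.39 in small tumours.

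Oat, ornithine aminotransferase, links ornithine to glutamate. It was at 5.13, 19.5 and 1924 CPM in large tumours, 6.40, 87.1 and 584.9 CPM in small tumours and 224.6, 814.4 and 1196 CPM in liver tissue. Liver tissue itself was uneven here: the median was 297.6 CPM in library set MMR9180604 (n = 6), 1092 CPM in MMR9180605a (n = 6) and 829.8 CPM in MMR9180606 (n = 3). Under the lowest liver tissue library lay 23 large and 22 small tumours.

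Cyp2e1, the ethanol-inducible cytochrome P450 that also activates nitrosamines such as diethylnitrosamine, was at 9.58, 176.1 and 11252 CPM in large tumours, 40.02, 1070 and 4221 CPM in small tumours and 4933, 7433 and 13001 CPM in liver tissue. It was the most abundant of the 9 per length in every group, with medians of 81.6 CPM per kilobase of exon in large tumours, 495.7 in small tumours and 3444 in liver tissue. All small tumours and 24 large tumours lay below every liver tissue library, and the remaining large tumour lay inside their range. Its relative Cyp1a2, which oxidises caffeine and aromatic amines and also answers to the aryl hydrocarbon receptor, was at 2.96, 26.3 and 1179 CPM in large tumours, 7.42, 58.3 and 254.7 CPM in small tumours and 170.9, 237.6 and 330 CPM in liver tissue. Of the large tumours 21 lay below the liver tissue range and 3 above it, and of the small tumours 23 lay below. The log2 fold change of Cyp1a2 was -2.13 ± 0.55 in large tumours (adjusted p = 0.000510) and -2.23 ± 0.50 in small tumours (adjusted p = 8.113e-05).

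Complete separation was rare: 0.523% of the 14538 genes had every small tumour below every liver tissue library, and Glul, Cyp2e1 and Tbx3 were among them. No member was separated in this way in large tumours, for which the share over all genes was not computed. Counting genes per tumour, 8 large and 7 small tumours held all 9 genes below the liver tissue range, and 13 of each held 8 genes below it. The share of all genes below the range in each tumour was not computed, so these counts cannot be set against it. Small tumours 2 and 17 held 5 of the 9 genes below the range, and large tumours 17 and 18 held 6, tumour 19 held 1 and tumour 20 held 0.

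By the number of genes below the liver tissue range, large tumours 17, 18, 19 and 20 stood apart from the other large tumours, and all 4 belong to library set MMR9180606. Tumour 22 of that set and tumour 4 of MMR9180604 ranked next after tumours 20 and 19 for Glul, Cyp2e1, Oat and Slc1a2. Glul was at 473.4 CPM in tumour 22 and 293.6 CPM in tumour 4, and each held 8 genes below the range. Tumours 17 to 20 were picked out after their values were seen, and are described without a test. In tumour 20, 8 of the 9 genes exceeded every liver tissue library, with 4016 CPM of Glul, 674.2 CPM of Slc1a2, 42.1 CPM of Lgr5, 39.8 CPM of Axin2 and 107.8 CPM of Rnf43. Cyp2e1, at 11252 CPM, was inside the liver tissue range. In tumour 19, Glul (1439 CPM), Lgr5 (22.4 CPM), Axin2 (15.15 CPM), Rnf43 (91.8 CPM) and Cyp1a2 (429.5 CPM) exceeded the liver tissue range, while Cyp2e1 (4079 CPM) lay below it. Both were also high in secreted and intracellular feedback inhibitors of Wnt signalling: Notum was at 53.5 CPM in tumour 19 and 113.8 CPM in tumour 20, against at most 16.4 CPM in the other large tumours. Nkd1 was at 39.9 CPM in tumour 19 and 117.7 CPM in tumour 20, against at most 5.33 CPM in the others.

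Tumours 17 and 18 showed a split within the 9 genes. In tumour 17, Lgr5 (11.4 CPM), Rnf43 (75.9 CPM) and Cyp1a2 (407.2 CPM) lay above every liver tissue library, whereas Glul (43.8 CPM) was close to the median of large tumours. Tumour 18 held 39.6 CPM of Rnf43, 22.9 CPM of Tbx3, 4.36 CPM of Lgr5 and 201.1 CPM of Cyp1a2 beside 42.1 CPM of Glul. Notum was at 15.9 CPM in tumour 17 and 16.4 CPM in tumour 18, and Nkd1 at 0.723 CPM in tumour 17 and 0.968 CPM in tumour 18. Whether these 4 tumours came from 1 animal is not given.

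**Figure D3:**
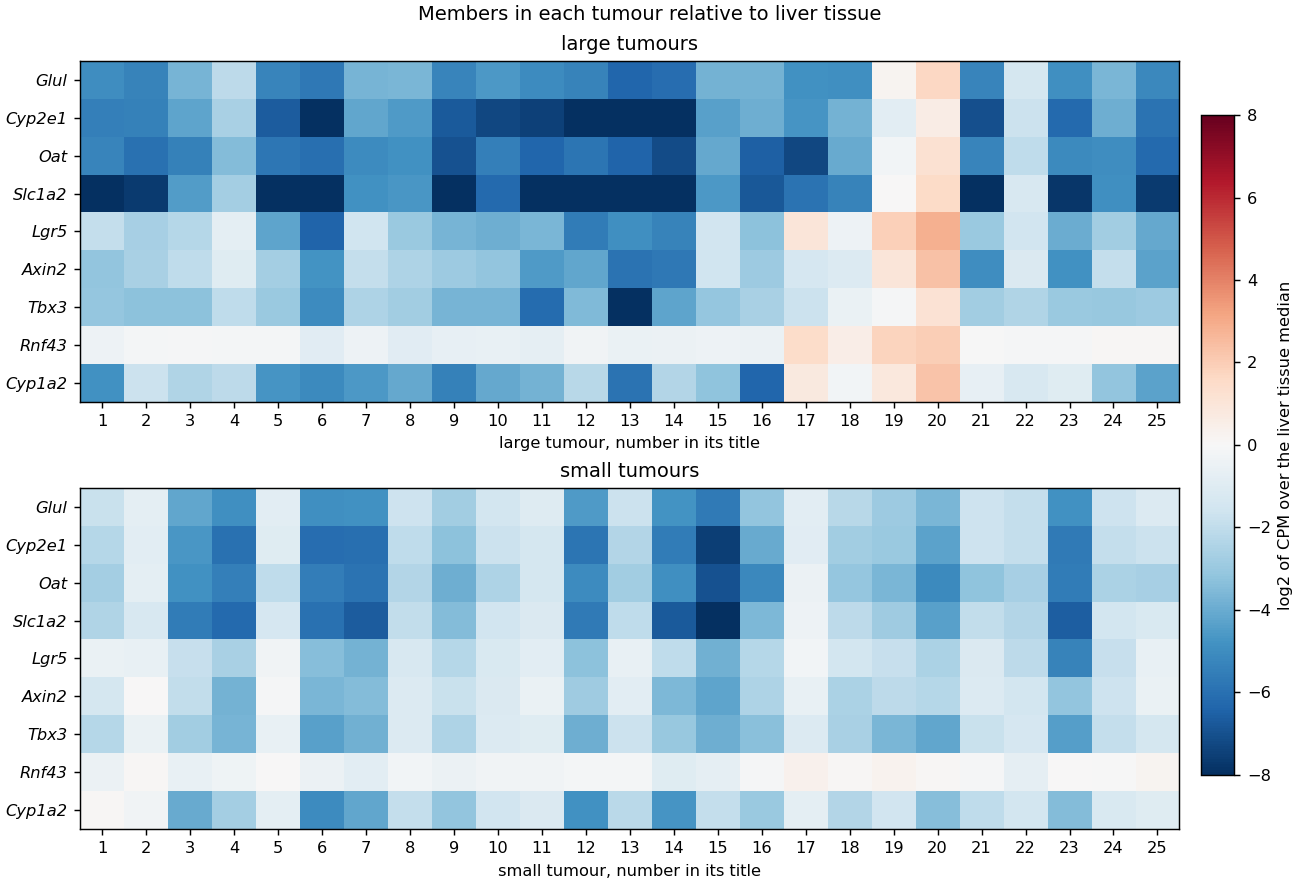
Level of each gene, from top to bottom, in each tumour, from left to right by the number in its title, as log2 of CPM over the liver tissue median, with large tumours above and small tumours below. Blue is lower and red higher than liver tissue, and the colours saturate at the ends of the scale. All 9 genes are red in large tumour 20, 3 are red in tumour 17, and the line of Rnf43 is pale in most other tumours.

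No member differed between large and small tumours in edgeR's test, in which 2.48% of the 14538 genes passed in either direction. At an unadjusted p under 0.05 were Cyp2e1 (-1.24 ± 0.56 on the log2 scale, unadjusted p = 0.0311, adjusted p = 0.214) and Rnf43 (0.30 ± 0.15, unadjusted p = 0.0425, adjusted p = 0.25). Glul was at -0.70 ± 0.52, Slc1a2 at -1.14 ± 0.69 and Oat at -0.87 ± 0.61. The medians of these metabolic genes lay lower in large tumours, at 42.7 CPM of Glul against 269.7 CPM in small tumours, and 2.16 CPM of Slc1a2 against 45.0 CPM. The count depended on tumours 19 and 20, which held the highest and next highest level of all 9 genes among large tumours. Leaving them out, a choice made on these same levels, lowers the large group by construction and is given as a description, not as a test. The log2 fold changes were then -1.84 for Glul, -2.08 for Cyp2e1, -2.13 for Oat and -2.46 for Slc1a2, and these 4 passed edgeR's threshold as lower, beside 3.91% of 14514 genes called in either direction. Without tumour 20 alone, Cyp2e1 passed (-1.73, adjusted p = 0.0315). With all libraries, DESeq2's Wald test called Glul, Oat and Slc1a2 lower, beside 3.92% of genes called in either direction, and limma on log2 CPM called Slc1a2, beside 2.41% of genes.

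Within single library sets, 8 members were lower in large tumours than in liver tissue in MMR9180604, where 21.9% of all genes were lower, and 9 in MMR9180605a, where 30.6% were. In MMR9180606 0 members passed, beside 16.1% of all genes. That set holds tumours 17 to 20 and 3 liver tissue libraries, and there Lgr5 was at 0.67 in large tumours (adjusted p = 0.671). For small tumours against liver tissue, 7 members passed as lower in MMR9180604, beside 19.9% of all genes, 9 in MMR9180605a, beside 25.4%, and 2 in MMR9180606, beside 14.5%. With no term for the set, Lgr5 (adjusted p = 0.325) and Cyp1a2 (adjusted p = 0.0687) no longer passed in large tumours, which left 6 members lower, beside 30.7% of all genes, and 8 were lower in small tumours, beside 29.6%.

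Spread between libraries was measured as the mean absolute deviation of log2 CPM from the fit of group and library set. It is a deviation from that joint fit, not from a group's own mean. It was 1.37 for Glul in large tumours, 1.41 in small tumours and 0.519 in liver tissue, and 2.36, 1.94 and 0.823 for Slc1a2 in the same groups. For Rnf43 it was 0.406 in large tumours, 0.233 in small tumours and 0.348 in liver tissue. A Levene-type test with limma over all genes called 1 member, Cyp1a2, as more spread in large tumours than in liver tissue (difference 1.12, adjusted p = 0.0495), beside 0.984% of genes. That call held in 25 of the 65 fits that each left out 1 library. No member passed for small tumours against liver tissue (0.241% of genes) or for large against small tumours (0.0275% of genes). The median difference of the 9 was 0.85 for large tumours against liver tissue and 0.72 for small tumours, beside 0.05 and 0.04 over all genes.

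The additive set term bears on this test. With residuals from the group alone, 7 members were more spread in large tumours than in liver tissue, beside 6.04% of genes, and only Oat and Rnf43 did not pass. The deviation of Axin2 was then 1.35 in large tumours and 0.171 in liver tissue (adjusted p = 0.00403), and that of Lgr5 was 1.54 in large tumours and 0.281 in liver tissue (adjusted p = 0.00483). Under the same setting Glul passed for small tumours (1.44 in small tumours against 0.278 in liver tissue, adjusted p = 0.0277), beside 1.71% of genes. In liver tissue, adding the set term raised the deviation from 0.278 to 0.519 for Glul and from 0.171 to 0.452 for Axin2. Of the members, only Oat had a lower value with it, at 0.751 against 0.796. Set offsets were fitted jointly over the groups, so those of tumours enter the liver tissue values. The calls with the term were made against these values, and which setting is nearer to the truth was not tested.

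Across the 50 tumours, the other 8 genes all had a positive slope on Glul (limma on log2 CPM with group and library set, adjusted over all genes), beside 11.9% of 14537 genes with a positive and 10.9% with a negative slope. Slc1a2 changed by 1.43 ± 0.06 log2 units per log2 unit of Glul, Cyp2e1 by 1.14 ± 0.06, Oat by 1.01 ± 0.06, Axin2 by 0.75 ± 0.06, Lgr5 by 0.71 ± 0.08, Tbx3 by 0.63 ± 0.07, Cyp1a2 by 0.59 ± 0.12 and Rnf43 by 0.14 ± 0.04. Slopes were above 1 for Slc1a2 and Cyp2e1, close to 1 for Oat and below 1 for the other 5. Within library set MMR9180606 alone Cyp2e1 was at 0.98, and without large tumours 19 and 20 Oat was at 0.96. Without tumours 19 and 20, the slope of Rnf43 was 0.04 (adjusted p = 0.431) and the other 7 passed, beside 10.88% of genes with a positive slope. Without tumour 20 alone 7 of the 8 passed.

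Within each tumour group 16 relations with Glul were computed, with permutation p-values adjusted over the 16 by Benjamini-Hochberg. Correlations were taken on residuals of log2 CPM from group and library set. In small tumours Pearson's r was 0.986 for Cyp2e1 and Spearman's rho 0.989 (permutation p = 1.000e-05 and adjusted p = 1.600e-05 for r, the smallest the permutations give, n = 25). It was 0.975 for Slc1a2, 0.956 for Oat, 0.949 for Axin2, 0.910 for Tbx3, 0.864 for Lgr5, 0.779 for Cyp1a2 and 0.480 for Rnf43 (permutation p = 0.014, adjusted p = 0.0149). Leaving out small tumours 23 and 11, the farthest from the median of the Glul residuals, gave 0.983 for Cyp2e1, 0.725 for Cyp1a2 and 0.424 for Rnf43. Small tumour 15, the lowest in Glul at 25.3 CPM, was kept. Within the library sets r for Cyp2e1 was 0.997, 0.992 and 0.981 in small tumours.

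In large tumours r was 0.942 for Slc1a2, 0.908 for Oat, 0.905 for Cyp2e1 and 0.867 for Axin2, with rho from 0.731 to 0.84 (each permutation p for r = 1.000e-05, adjusted p = 1.600e-05). Leaving out tumours 20 and 19, the farthest from the median of the Glul residuals, gave 0.921 for Slc1a2, 0.777 for Oat, 0.875 for Cyp2e1 and 0.728 for Axin2. The relation was looser for Lgr5, with r = 0.745 and rho = 0.594 (adjusted permutation p = 0.000107 for r), and for Tbx3, with r = 0.667 and rho = 0.502 (adjusted permutation p = 0.000554 for r). Without tumours 20 and 19 r was 0.462 for Lgr5 and 0.354 for Tbx3. For Cyp1a2 r was 0.430 (permutation p = 0.032, adjusted p = 0.032) and rho 0.113 (permutation p = 0.59). For Rnf43 r was 0.549 (permutation p = 0.0073, adjusted p = 0.00834) and rho 0.199 (permutation p = 0.34). Without tumours 20 and 19, r was 0.036 for Cyp1a2 and -0.112 for Rnf43, so these 2 relations in large tumours rest on those tumours. In the slope test adjusted over all genes, 6 of the 8 genes passed in large tumours alone, beside 1.48% of genes, and neither Cyp1a2 (adjusted p = 0.273) nor Rnf43 (adjusted p = 0.111) did. In small tumours alone 7 passed, beside 9.56% of genes, and Rnf43 did not (adjusted p = 0.0635). Within library sets MMR9180604, MMR9180605a and MMR9180606, r for Slc1a2 in large tumours was 0.978, 0.925 and 0.963.

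**Figure D4:**
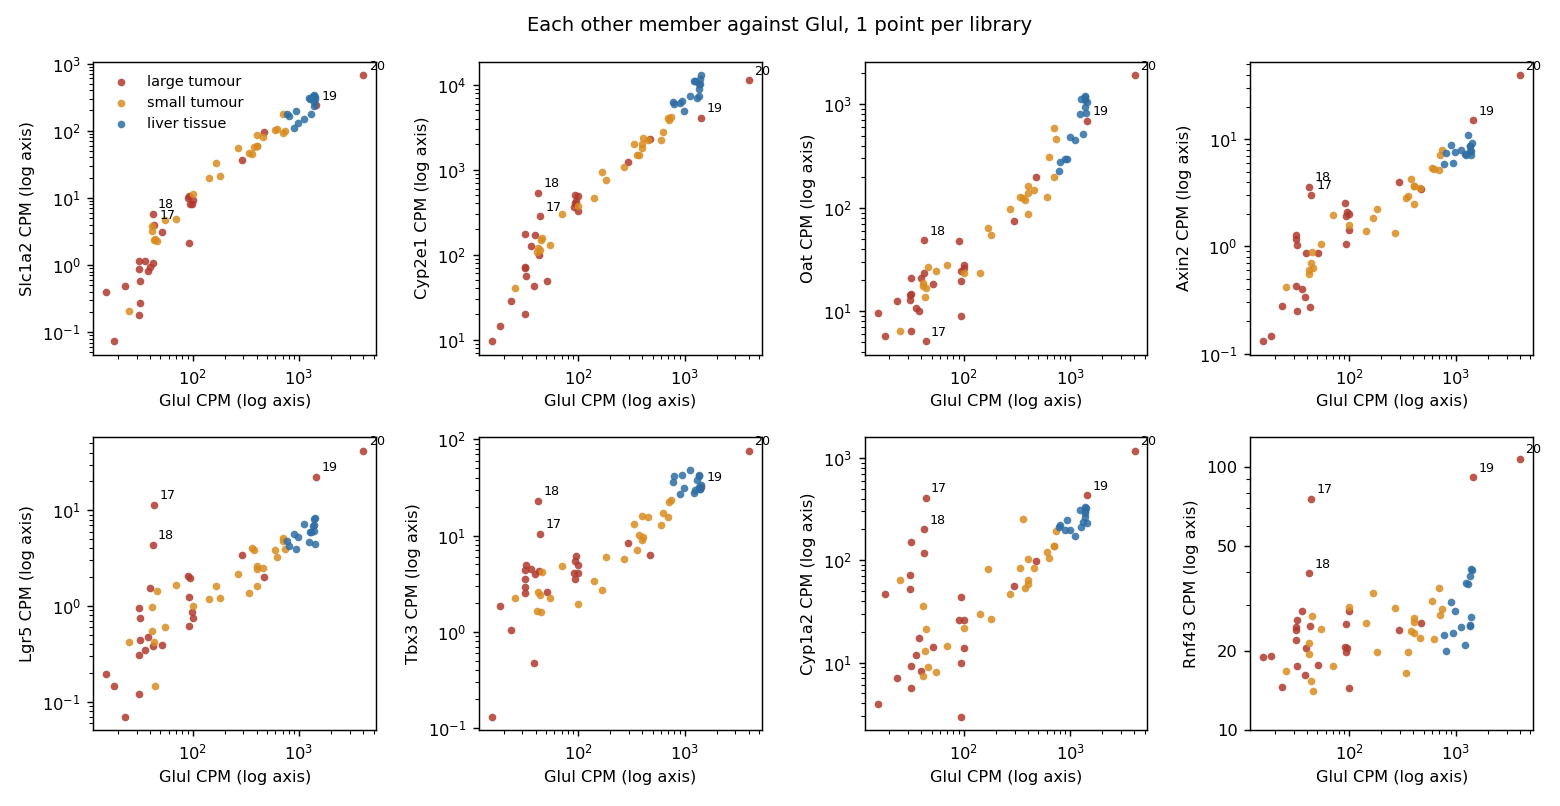
CPM of each of the other 8 genes against CPM of Glul on log axes, with 1 point per tissue library, large tumours in red, small tumours in orange and liver tissue in blue. Numbers mark large tumours 17 to 20. Slc1a2, Cyp2e1 and Oat follow Glul over the whole range. Tumours 17 and 18 sit above the trend for Axin2, Lgr5, Tbx3, Cyp1a2 and Rnf43 at Glul levels of 43.8 and 42.1 CPM.

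The 5 genes most like Glul over the 50 tumours, by Pearson's r of residuals from group and library set, were Slc1a2 (0.955), Lhpp (0.944), Cyp2e1 (0.942), Oat (0.930) and Sp5 (0.917). Those most like Lgr5 were Notum (0.902), Rnase4 (0.886) and Axin2 (0.881). Axin2 was followed by Cyp2e1 (0.930), Pon1 (0.914) and Sp5 (0.907), and Oat by Lhpp (0.974), Glul (0.930) and Slc22a3 (0.911). Cyp2e1 was closest to Pon1 (0.950), Slc1a2 (0.947) and Cyp2c50 (0.944), and Slc1a2 to Glul, Cyp2e1 and Cyp2c37 (0.942). Tbx3 came closest to Chrna2 (0.870), Slco1b2 (0.861) and Axin2 (0.840). Cyp1a2 and Rnf43 had other neighbours: Akr1c6 (0.866), Akr1a1 (0.788) and Gstm2 (0.780) for Cyp1a2, and Gba2 (0.754), Slc13a3 (0.749) and Arhgef19 (0.743) for Rnf43. These are descriptions over tumours that share library sets.

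Upstream of the members, Wnt2, Wnt9b and Rspo3 are the ligands and the R-spondin that sinusoidal and central vein endothelium supplies. Wnt2 was at 0.0561, 0.758 and 2.51 CPM in large tumours, 0.282, 2.42 and 4.14 CPM in small tumours and 1.42, 3.07 and 7.11 CPM in liver tissue. Rspo3 was at 0.130, 1.42 and 4.42 CPM in large tumours, 1.20, 3.38 and 7.34 CPM in small tumours and 3.89, 5.75 and 8.499 CPM in liver tissue. Both passed the test between large and small tumours, Wnt2 at -1.34 ± 0.25 (adjusted p = 0.00317) and Rspo3 at -0.96 ± 0.23 (adjusted p = 0.0148), as did Wnt9b at -1.49 ± 0.38 (adjusted p = 0.0226), on medians of 0.325 CPM in large tumours and 0.827 CPM in small tumours.

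Of 9 ligand and secretion genes tested of 12 listed, 6 were lower and 2 higher in large tumours than in liver tissue, and 4 were lower and 2 higher in small tumours. Over all genes, 32.1% were lower and 38.5% higher in large tumours, and 31% were lower and 34.7% higher in small tumours. Wnt5b, a ligand of the non-canonical branch, was at -2.75 ± 0.28 in large tumours (adjusted p = 2.542e-13) and -1.96 ± 0.28 in small tumours (adjusted p = 1.147e-08). The list's median was -1.27 in large and -0.57 in small tumours. In the 50 tumours 6 of these 9 genes had a positive slope on Glul, beside 11.9% of all genes. The slope was 0.43 ± 0.09 for Wnt9b and 0.35 ± 0.06 for Rspo3. In large tumour 20, where Glul was highest, Wnt2 was at 0.645 CPM and Rspo3 at 2.07 CPM, and in tumour 19 Wnt2 was at 0.0561 CPM and Rspo3 at 0.785 CPM. The median of the other large tumours was 0.769 CPM for Wnt2 and 1.42 CPM for Rspo3. Of 9 central vein and sinusoidal endothelial markers, which include these 3 genes, 6 were lower and 2 higher in large tumours than in liver tissue, 3 were higher and 1 lower in small tumours than in liver tissue, and 6 were lower in large than in small tumours. Their summed level was 56.8 to 253.5 CPM in large tumours, 138 to 424.5 CPM in small tumours and 135.1 to 333.7 CPM in liver tissue, and their part in the ligand values was not tested. Of 5 Kupffer cell markers 4 also had a positive slope on Glul, as did 5 of the 9 endothelial markers.

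Receptors and intracellular components were called in both directions, as were all genes. Over all genes, 38.5% were higher and 32.1% lower in large tumours, and 34.7% were higher and 31% lower in small tumours. Of 12 receptor genes tested of 17 listed, 4 were higher and 4 lower in large tumours than in liver tissue, and 4 were higher and 3 lower in small tumours. Fzd3 was at 3.10 ± 0.33 in large tumours (adjusted p = 1.267e-12) and Fzd7 at -0.92 ± 0.11 (adjusted p = 3.346e-11). Of 18 intracellular genes, 7 were higher and 4 lower in large tumours, and 8 were higher and 4 lower in small tumours. Ctnnb1, which encodes β-catenin, was at 0.54 ± 0.05 in large tumours (adjusted p = 8.233e-14) and 0.50 ± 0.05 in small tumours (adjusted p = 2.489e-12). Of 4 secreted inhibitors tested of 10 listed, Frzb was higher and Kremen1 lower in both tumour groups.

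Other Wnt targets were called in both directions, as were all genes, and other pericentral genes mostly followed the members. The shares over all genes were 38.5% higher and 32.1% lower in large tumours, and 34.7% higher and 31% lower in small tumours. Of 10 general Wnt targets tested of 14 listed, 4 were higher and 4 lower in large tumours, and 4 were higher and 5 lower in small tumours. Sp5 (-2.05 ± 0.58, adjusted p = 0.00149) and Notum (-2.28 ± 0.47, adjusted p = 2.334e-05) fell in large tumours while the cell cycle gene Ccnd1 rose (1.38 ± 0.16, adjusted p = 4.292e-11). Of 18 other pericentral genes, 12 were lower and 2 higher in large tumours and 14 were lower in small tumours, with list medians of -2.19 and -1.85. Cyp2c54 was at -5.38 ± 0.64 in large tumours (adjusted p = 5.951e-11) and -3.41 ± 0.59 in small tumours (adjusted p = 9.784e-07), and it also passed between large and small tumours (-1.98 ± 0.55, adjusted p = 0.0388). With Glul, 15 of the 18 had a positive slope, beside 11.9% of all genes.

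Sorted cells were sequenced with another library kit and are only described, pooled over treatment labels, as CPM of gene counts. Liver is used as in the titles, whereas the protocol names tumours as the source. In T cells Axin2 and Rnf43 were present in every library: Axin2 was at 19.4, 49.3 and 85.2 CPM (lowest, median and highest) in 36 liver T cell libraries and 36.1, 65.4 and 96.5 CPM in 37 blood T cell libraries, and at medians of 0.479 CPM in 29 liver neutrophil and 0 CPM in 32 blood neutrophil libraries. Rnf43 was at 4.54, 54.0 and 157.1 CPM in liver T cells and 6.54, 27.4 and 56.5 CPM in blood T cells, with medians of 0.725 CPM in liver neutrophils and 0.171 CPM in blood neutrophils. The levels of Rnf43 differed between labels. In liver T cells it was at 34.5 to 157.1 CPM under all labels but PBS and at 4.54 to 19.1 CPM in the 8 PBS libraries. In blood T cells it was at 17.1 to 56.5 CPM under the other labels and at 6.54 to 12.0 CPM in the 8 PBS libraries, so the 2 did not overlap in either tissue. Library sets, read from the labels, also differed between these groups, and their part was not tested. The split by label was added to the pooled description, and the share of all genes separated in the same way was not computed. Tcf7, the TCF factor of T cells, was at a median of 430.1 CPM in liver T cells and 1093 CPM in blood T cells. Glul and Oat had counts in every sorted library, Glul at medians of 41.6 CPM in liver T cells, 42.6 CPM in blood T cells, 70.2 CPM in liver neutrophils and 83.9 CPM in blood neutrophils. Cyp2e1, Slc1a2, Lgr5, Tbx3 and Cyp1a2 had medians of at most 0.607 CPM in each of the 4 populations, beside medians of the hepatocyte transcript Alb of 41.2 CPM in liver T cells and 67.2 CPM in liver neutrophils.

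One sorted library went against that pattern. Replicate 3 of the liver T cells labelled DEN ALIOS CXCR2i aPD1 held 1287 CPM of Glul (8021 reads), 356.4 CPM of Cyp1a2, 259.5 CPM of Slc1a2, 18.0 CPM of Tbx3 and 16.4 CPM of Lgr5. The highest values in the other liver T cell libraries were 101.4 CPM of Glul, 5.67 CPM of Cyp1a2, 12.1 CPM of Slc1a2, 1.78 CPM of Tbx3 and 1.11 CPM of Lgr5. Cyp2e1, the most abundant member in liver tissue, was at 29.05 CPM, below the highest of the other libraries at 59.0 CPM. The library also held 78.5 CPM of Nkd1, 23.4 CPM of Notum and 2192 CPM of Alb, with 694.6 CPM of the T cell marker Cd3e. In liver tissue the median of Alb was 53081 CPM beside 1257 CPM of Glul. Large tumour 20 held 86791 CPM of Alb beside 4016 CPM of Glul. Large tumours other than 19 and 20 had medians of 150759 CPM of Alb and 42.1 CPM of Glul. Tissue values come from another kit and scaling, and the source of the transcripts in the sorted library was not tested.

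**Figure D5:**
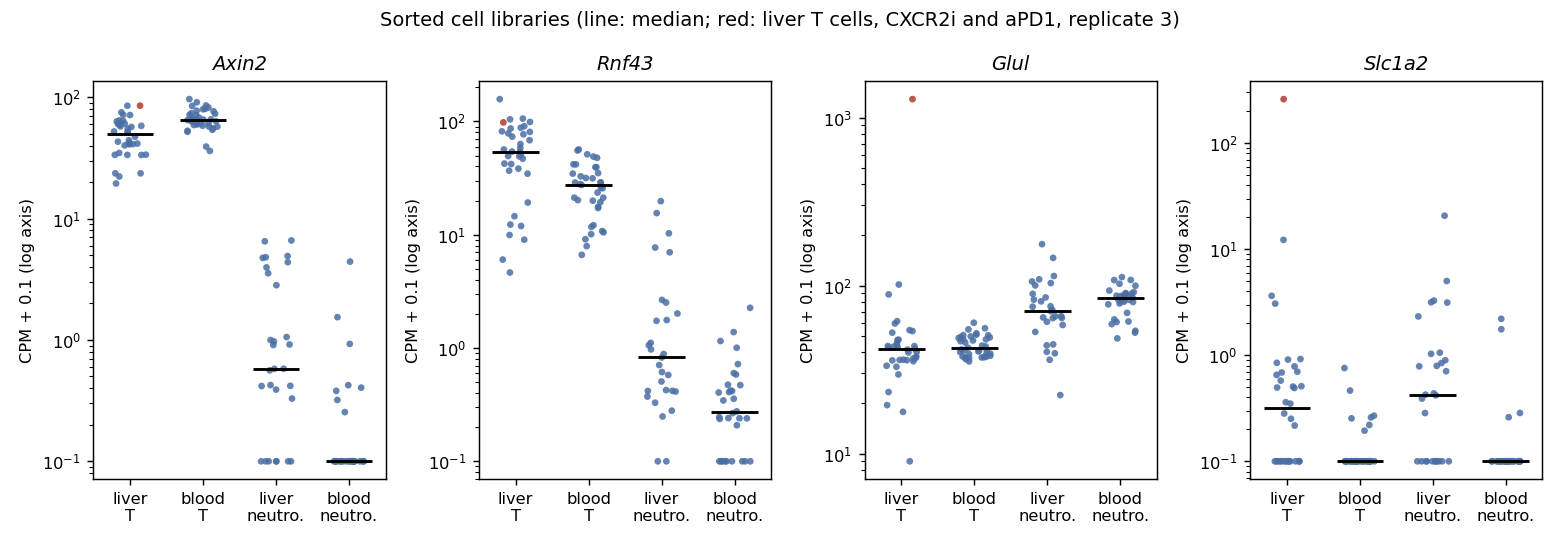
CPM of Axin2, Rnf43, Glul and Slc1a2 in every sorted library, plotted as CPM + 0.1 on a log axis, with lines at medians and 1 point per library. Medians of Axin2 and Rnf43 are higher in T cells than in neutrophils, the lowest Rnf43 points of T cells are PBS libraries, and the red point, 1 liver T cell library, lies at 1287 CPM of Glul and 259.5 CPM of Slc1a2, above all others.

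Per the annotation used for names (GENCODE M21, GRCm38), several members share exonic bases with other genes. Glul shares them with Mir8114 on its own strand, which no strand setting would separate. With genes on the other strand, exonic bases are shared by Glul (chromosome 1, 153899944 to 153909723, plus strand) with Teddm2, Slc1a2 (chromosome 2, 102658659 to 102790784, plus strand) with Gm13872, Axin2 (chromosome 11, 108920349 to 108950783, plus strand) with Gm11670, and Tbx3 (chromosome 5, 119670669 to 119684724, plus strand) with Tbx3os1. Tissue libraries came from a stranded kit, but no source used here gives the strand setting of the counting, and reads of these pairs cannot be told apart. Near-identical copies of Glul and Oat elsewhere in the genome were not examined here, and reads shared with any such copy may be lost. Cyp2e1 (chromosome 7, 140763739 to 140774987, plus strand) and Cyp1a2 (chromosome 9, 57676937 to 57683703, minus strand) overlap no other gene.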

How the data were processed

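The authors deposited 1 table of raw counts, genes by libraries, that covers all 199 samples. Per the submitters' processing notes, the build was GRCm38 and the tools were HTSeq 0.11.2, HISAT2 2.1.0, FastQC 0.11.8 and Trim Galore 0.6.4. The 5 summary entries of the counter, 55.9% of tissue entries, were left out. Names were matched by Ensembl identifier for 37607 genes. The members and all gene lists were chosen with earlier results of these data known.

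Groups came from titles. The 65 tissue libraries were fitted together with edgeR 4.0.16 in R 4.3.3: TMM factors, filterByExpr (count minimum 10, total minimum 15), library set as a term, robust quasi-likelihood F tests and Benjamini-Hochberg adjustment at 0.05. Standard errors were derived from F. CPM uses TMM-scaled totals in tissue and plain totals in sorted cells. Spread and slopes were fitted with limma 3.58.1 on log2 CPM (prior count 2), and correlations used 100000 permutations. DESeq2 1.42.0 was an alternative. The steps were tested on simulated data. Levels under 1 CPM rest on few reads. No 2 libraries of a group agreed within sampling noise (lowest chi-square per degree of freedom 2.78). All members were named. Of each other pathway list, up to 3 called genes with the largest fold change per comparison were eligible, plus the same genes in the other comparisons, markers that moved with a group, and the ligands, Notum and Nkd1 in tumours 17 to 20, chosen after their values were seen. Likeness left out predicted genes, pseudogenes and mitochondrially encoded genes. Left out were tests of sorted cells against tissue.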

Additional observations from a re-analysis of the deposited data

Results flagged for a closer look

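In the 5 liver T cell libraries labelled DEN ALIOS CXCR2i aPD1, replicate 3 lay farther from the other 4 than Dixon's 95% limit of 0.71 allows for 7 of the 9 genes: 1287 CPM of Glul (next highest 53.5 CPM), 29.05 CPM of Cyp2e1 (0.953 CPM), 180.4 CPM of Oat (37.8 CPM), 259.5 CPM of Slc1a2 (0.821 CPM), 16.4 CPM of Lgr5 (0.297 CPM), 18.0 CPM of Tbx3 (0.164 CPM) and 356.4 CPM of Cyp1a2 (0.492 CPM). Axin2, at 85.2 CPM against 60.6 CPM, and Rnf43, at 97.9 CPM against 87.8 CPM, stayed within the limit. Chance alone puts about 1 in 20 groups past it, and the library was singled out after its values were seen. Of its other hepatocyte transcripts, Alb was at 2192 CPM and Apoa1 at 588.3 CPM, against at most 1032 CPM and 148.2 CPM in the other liver T cell libraries, and Afp was at 62.9 CPM against at most 6.46 CPM. Their part in the result was not tested.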

How the results depend on the processing

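Limits: animals are not given, liver tissue labels conflict, library set MMR9180606 holds 3 liver tissue libraries and large tumours 17 to 20, and Slc1a2, Lgr5, Axin2 and Tbx3 rest on 1 or 2 reads in their lowest tumours.

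Counts of members lower than in liver tissue were 8 in large and 9 in small tumours in every fit without 1 library. They were 0 and 2 within MMR9180606 alone, where Lgr5 reversed to 0.67 (adjusted p = 0.671) in large tumours. Between large and small tumours the count was 0, against 3 with DESeq2, 4 without large tumours 19 and 20, 1 with limma-trend and 0 to 1 without 1 library. Tumours 19 and 20 were left out for their high levels of these genes, so every value without them is a description. DESeq2 gave Glul -1.27 (adjusted p = 0.0323), Oat -1.48 (0.024) and Slc1a2 -1.82 (0.0287), and limma-trend gave Slc1a2 -2.37 (0.032). These causes were not tested. Members more spread than liver tissue numbered 1 in large tumours (0.984% of all genes) and 0 in small tumours (0.241%). In large tumours they were 7 with residuals from group alone (6.04%), 5 with group alone and without tumours 19 and 20 (3.769%), and 0 to 2 without 1 library. In small tumours they were 1 with group alone (1.71%), 1 without tumours 19 and 20 (1.3%), 6 with both (2.215%), and 0 to 1 without 1 library. Positive slopes on Glul numbered 8, beside 11.9% of all genes, and 7 to 8 without 1 library. They numbered 6 in large tumours alone (1.48% of genes) and 7 in small tumours alone (9.56%). Within MMR9180604, MMR9180605a and MMR9180606 they numbered 8 (6.755%), 6 (0.798%) and 6 (1.754%). In large tumours alone without 19 and 20 they numbered 4 (1.114%), and Rnf43 reversed to -0.051.

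Same-numbered libraries did not deviate together (55 pairs, median r = -0.03, lowest -0.528, highest 0.329, 0 libraries closest to their own number). Tumours of 1 mouse need not deviate together, so these values cannot tell whether same-numbered libraries share an animal. With the title number as a replicate block 9, 9 and 0 members were called in the 3 comparisons, Rnf43 at -0.41 (adjusted p = 0.0129) in large tumours. The share of all genes called against liver tissue with that block is not given here, so these counts cannot be set against it. Genes called between large and small tumours numbered 360, against 123 with that block, 1118 with library totals only, 570 with DESeq2, 568 without tumours 19 and 20, 200 when 4 libraries with S100a8 above 10 CPM were dropped, and 0, 8 and 2 within the sets. Leaving out 1 library gave 177 to 891, past 1.5 times for large tumours 5, 13, 16, 19 and 20 and small tumours 2, 11, 14, 17 and 22. Within MMR9180604, MMR9180605a and MMR9180606, 6409, 8850 and 5287 genes were called in large tumours against liver tissue (10252 in all sets) and 6217, 7311 and 4539 in small tumours (9559). The leaving out of tumours 19 and 20, of S100a8-high libraries, limma-trend and the leave-outs for spread and slopes were chosen after seeing the data.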

Other observations

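Periportal genes, which mark the opposite end of the lobule, were also lower in tumours. Of 16 tested, 13 were lower and 3 higher in large tumours than in liver tissue, and 11 were lower and 3 higher in small tumours, with medians of -1.11 and -0.75 on the log2 scale. Over all genes, 32.1% were lower and 38.5% higher in large tumours, and 31% were lower and 34.7% higher in small tumours. Cyp2f2 was at -3.33 ± 0.41 in large tumours (adjusted p = 1.264e-10) and -2.17 ± 0.41 in small tumours (adjusted p = 4.838e-06, edgeR), and Igf1 at -2.87 ± 0.32 in large tumours (adjusted p = 8.299e-12). Cdh1, the epithelial cadherin, rose, at 2.86 ± 0.22 in large tumours (adjusted p = 2.879e-17). Across tumours 3 of the 16 had a positive and 2 a negative slope on Glul, beside 11.9% and 10.9% of all genes.

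Among the 4 large tumours that stood apart, Cyp2f2 was at 8.02 CPM in tumour 17, 3.18 CPM in tumour 18, 5.95 CPM in tumour 19 and 307.5 CPM in tumour 20, beside a median of 68.9 CPM in the other large tumours without 19 and 20. Lect2, a secreted β-catenin target, was at 295.4 CPM in tumour 17, 229.1 CPM in tumour 18, 448 CPM in tumour 19 and 741.4 CPM in tumour 20, against 63.4, 103.7 and 133.7 CPM (lowest, median and highest) in liver tissue. Sp5 was at 5.67 CPM in tumour 19 and 12.95 CPM in tumour 20 but 0.217 CPM in tumour 17 and 0.968 CPM in tumour 18. These genes were chosen after their values were seen.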
